A study of Mus musculus with 6 samples.

Results

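Chemotactic receptors are the surface proteins through which a macrophage reads gradients of chemokines, chemerin, formyl peptides and lipid mediators. The 7 receptor genes described here are Ccrl2, Cmklr1, Ccr1, Ccr2, Fpr1, Fpr2 and Ltb4r1, and all 7 symbols were found among the 55401 genes of the deposited table. They were chosen by name, with their counts in NETs-treated and control cells already known. Values of that contrast are therefore given for them as a description, without a test. RNA-seq libraries came from wild-type mouse cells labelled BMDM (bone marrow-derived macrophages), 3 labelled Normal (the controls) and 3 labelled NETs-treated. NETs are neutrophil extracellular traps, meshes of chromatin and granule enzymes released by neutrophils. Sample titles name BV2 instead, a mouse microglial cell line. The dose of NETs, the length of exposure, the age and sex of any animals, and whether replicates were separate cultures were not given in the sources used here. A p-value below thus reflects only how far these samples scatter, and that scatter may be technical.

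As background, most of these receptors couple to inhibitory (Gi) G proteins, which drive calcium release, phosphoinositide 3-kinase signalling and Rac-dependent movement towards the ligand. Chemerin is a secreted protein that becomes active when proteases trim its end. Cmklr1 signals when it binds chemerin, whereas Ccrl2 is an atypical receptor that binds chemerin without known chemotactic signalling and can hold it for neighbouring cells that carry Cmklr1. Ccr1 and Ccr2 answer to CC chemokines and are known from monocyte recruitment. Fpr1 and Fpr2 sense formylated peptides of bacteria and mitochondria, and Ltb4r1 is the high-affinity receptor of leukotriene B4.

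In these cells only Ccrl2 and Ccr1 were expressed at levels that passed the filter on low counts, 2 of the 7 receptors. On the CPM scale (a gene's reads scaled by the depth of its library), Ccrl2 was 11.2-fold higher in NETs-treated than in control cells, while Ccr1, the more abundant, differed by 1.07-fold. Cmklr1 had 18 reads over the 3 control libraries and 0 over the NETs-treated ones. Ccr2, Fpr1, Fpr2 and Ltb4r1 had at most 6 reads in any group of 3 libraries, out of 39994613 to 44274445 counted reads per library. The plot of the receptors by library shows these 3 patterns.

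**Figure D1:**
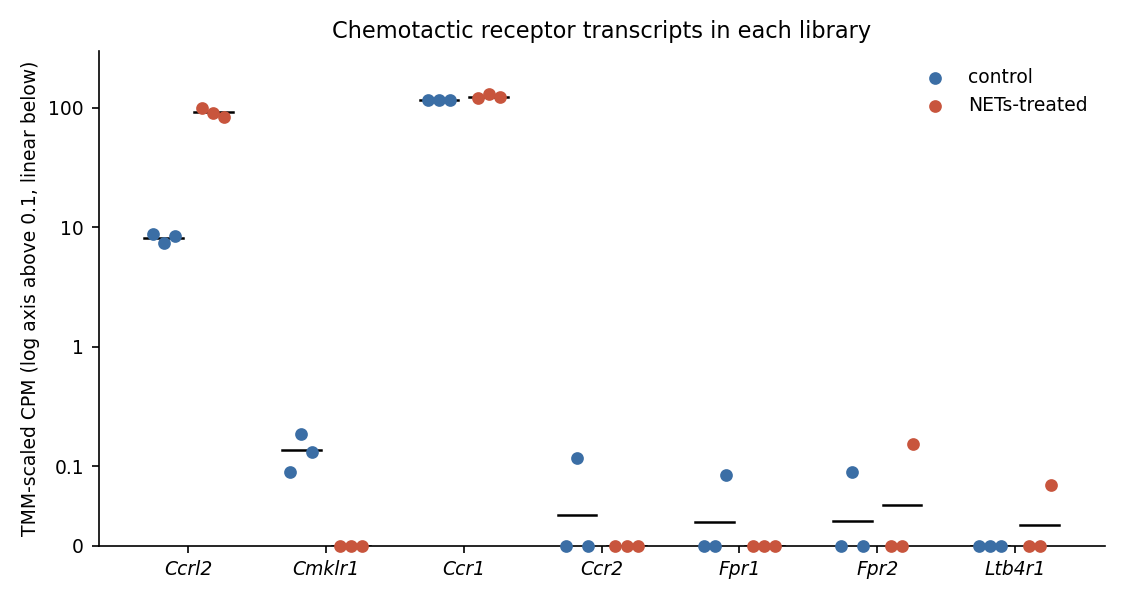
CPM (scaled by the TMM method; axis logarithmic above 0.1 and linear below) of the 7 receptor genes in each library, with points for the 3 control and 3 NETs-treated libraries and black bars for means. Ccrl2 goes from a mean of 8.15 to 91.6 CPM, Ccr1 lies between 115 and 129 CPM in all 6 libraries, and the other receptors lie below 0.2 CPM.

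Promoter windows of the 2 expressed receptors are shown first, because these genes lie on the same chromosome and 1 of them differed widely between the groups while the other hardly did. Both windows come from RefSeq, build GRCm38.p6, and run 5′ to 3′ on the minus strand from 250 bases before to 50 bases after an annotated start. Capitals mark matches on either strand to GGG and CC with 5 bases of any kind between them, a loose form of the site bound by NF-kB, the transcription factor of inflammatory induction. For Ccrl2 the window is chr9:111057469-111057768, and for Ccr1 it is chr9:123968643-123968942.
Ccrl2: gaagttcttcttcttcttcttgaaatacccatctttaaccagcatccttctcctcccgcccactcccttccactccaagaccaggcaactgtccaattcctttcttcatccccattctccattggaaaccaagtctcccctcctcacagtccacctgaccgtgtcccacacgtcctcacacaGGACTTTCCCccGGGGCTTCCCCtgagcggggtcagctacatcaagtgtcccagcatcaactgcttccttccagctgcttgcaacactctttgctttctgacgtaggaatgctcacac
Ccr1: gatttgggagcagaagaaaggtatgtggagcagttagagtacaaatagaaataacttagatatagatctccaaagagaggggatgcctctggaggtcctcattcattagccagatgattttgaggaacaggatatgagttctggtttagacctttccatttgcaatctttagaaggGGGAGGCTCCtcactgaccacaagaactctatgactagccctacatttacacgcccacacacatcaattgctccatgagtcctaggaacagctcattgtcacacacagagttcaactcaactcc

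The Ccrl2 window holds 3 matches, which begin 68, 56 and 55 bases upstream of the start and of which the last 2 overlap. The Ccr1 window holds 1 match, 74 bases upstream. A window of Cmklr1, which had few reads or none, holds 2 matches, 184 and 64 bases upstream. Such matches are common, since 50.8% of 32851 windows of the same length (chromosome 18 left out) held at least 1, so they are a description of the letters and not of binding. Matches to TGANTCA (AP-1), a pair of GAAA with 2 bases of any kind between them (interferon response element), TGACGTCA (CRE) and GAGGAAGT (PU.1) were found in neither window, against 7.81%, 3.44%, 1.79% and 3.20% of all windows. RefSeq lists 2 further starts of Ccrl2, whose windows held none of the 5 motifs. All 7 receptors had a window, 9 windows in all, and among the other receptors the only further match was 1 to the PU.1 motif for Ltb4r1.

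Ccrl2 (ENSMUSG00000043953.12) lies on chromosome 9 from 111054486 to 111057519 in GRCm38, where GENCODE M21 gives 3 transcripts. Its level was 8.72, 7.33 and 8.39 CPM in the control libraries and 100.4, 90.1 and 84.2 CPM in the NETs-treated ones. The groups were far apart, and no control library came near the lowest NETs-treated one. The log2 fold change was 3.49 ± 0.11 (SE), fitted with edgeR on all 6 libraries. Among the 15272 genes tested, 115 had a larger log2 fold change, and the median log2 fold change of all of them was -0.02. In every alternative run, the log2 fold change of Ccrl2 lay between 3.41 and 3.56.

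Cmklr1 (ENSMUSG00000042190.12), the signalling receptor of chemerin, lies on chromosome 5 from 113612354 to 113650426. Its reads numbered 4, 8 and 6 in the control libraries and 0 in each of the NETs-treated ones. All 3 control libraries held reads and none of the NETs-treated did, but the level was low, at 0.137 ± 0.0465 CPM (SD, n = 3). Set against a floor of 3 reads over the NETs-treated group, it was at least 5.56-fold lower. This bound takes the control reads as they stand and leaves out their own counting error. All intervals and floors here cover counting error at most, because reads copied by PCR cannot be counted as separate molecules. The antisense gene Gm15736, which overlaps Cmklr1, had 0 reads in both groups.

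Of the chemerin system beyond these receptors, a list held Rarres2, the gene of chemerin itself, Gpr1, a further chemerin receptor, and proteases of blood plasma, lysosomes and neutrophil granules, several known to trim chemerin. Of 5 tested genes on that list (11 measured) 3 fell and 0 rose by edgeR (adjusted p under 0.05), with a median log2 fold change of -0.51. Over all tested genes, 25.5% were called higher and 27.2% lower. At an unadjusted p under 0.05 Rarres2 alone was higher, while the Wald test of DESeq2 and limma-voom called 0 higher. Rarres2 stood at 4.35, 3.02 and 2.95 CPM in control and 4.05, 5.46 and 5.77 CPM in NETs-treated libraries, so the groups overlapped. Its log2 fold change was 0.57 ± 0.24 (SE; edgeR with Benjamini-Hochberg adjustment, adjusted p = 0.0809). It was called higher without control replicate 1 or without NETs-treated replicate 1, when the list had 1 rise.

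Ctsk, the gene of the protease cathepsin K, fell from 351 ± 12.2 to 117 ± 9.79 CPM (SD, n = 3 each), a change of -1.59 ± 0.08 (SE) on the log2 scale. Prtn3, the gene of neutrophil proteinase, fell from 1.26 ± 0.478 CPM to 0.447, 0 and 0.179 CPM. It passed the filter on low counts through its control libraries. Its call (edgeR adjusted p = 0.0403) was lost in 5 alternatives, namely with no filter and without any of the 3 control libraries or NETs-treated replicate 3, and the gene was too low to be tested with a filter of 1 CPM in 3 samples. The third of the falling genes was Ctss, named here because the count is small. Gpr1 was not tested, with reads in 1 library of each group, 11 in control and 12 in NETs-treated. Thus chemerin's transcript and that of Ccrl2 were detected in both groups, and those of its signalling receptors were near or at 0.

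Ccr1 (ENSMUSG00000025804.5), a receptor of Ccl3, Ccl6 and Ccl9, lies on chromosome 9 from 123962124 to 123968692 with 1 annotated transcript. Its CPM was 115.8, 115.4 and 115.3 in control and 120.6, 129.3 and 122.6 in NETs-treated libraries. The control libraries were nearly identical, and the NETs-treated ones lay just above them without overlap. However, the log2 fold change was only 0.10 ± 0.06 (SE), and it ranged from 0.03 with scaling by library size only to 0.15 without NETs-treated replicate 1. Depth was not a limit for this gene, which had 15186 reads over the control and 15108 over the NETs-treated libraries.

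Ccr2 (ENSMUSG00000049103.14), the receptor of Ccl2 and Ccl7 and a defining receptor of recruited monocytes, spans 124101950 to 124113557 on the same chromosome. It had 5 reads, all in control replicate 2, and 0 in the other 5 libraries. Fpr1 (ENSMUSG00000045551.7; chromosome 17, 17876471 to 17883940) had 4 reads, all in control replicate 3. The groups overlapped at 0 for both genes.

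Fpr2 (ENSMUSG00000052270.7; chromosome 17, 17887824 to 17893952) had 4 reads in control replicate 2 and 6 in NETs-treated replicate 3. The scaled ratio of NETs-treated to control was 1.62, with an exact binomial 95% interval of 0.384 to 7.80 for counting error only. Ltb4r1 (ENSMUSG00000046908.5; chromosome 14, 55765962 to 55768494) had 3 reads in NETs-treated replicate 3 and 0 elsewhere, which gives no fold. For Ccr2, Fpr1, Fpr2 and Ltb4r1 all reads of a group came from 1 library, and a difference between the groups was not detectable at this depth. Reads that pile up in 1 library were common at such counts: of 1542 genes with 4 to 6 reads over the control libraries, 65.4% had all of them in 1 library, and so did 66.5% of 1565 genes in the NETs-treated group.

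Levels of different receptors were compared per length, as CPM per kilobase of exon, over 44 chemotactic receptors: the 7 above, 21 other chemokine receptors and 16 receptors of other attractants. In control cells Ccr1 ranked first at 40.8 ± 0.0832 CPM per kilobase (SD, n = 3), and Ccrl2 ranked 9th at 3.14 ± 0.279. The complement receptors C3ar1 (39.4 ± 1.99) and C5ar1 (39.1 ± 0.565), named after their values were seen, followed. C3ar1 (37.3 to 41.2) overlapped both Ccr1 (40.7 to 40.9) and C5ar1 (38.5 to 39.5), so these neighbours in the order did not differ beyond their spread, except that C5ar1 lay below Ccr1. In NETs-treated cells Ccr1 remained first at 43.8 ± 1.61, and Ccrl2 stood second at 35.3 ± 3.15 CPM per kilobase. Ccr1 (42.6 to 45.6) did not overlap Ccrl2 (32.4 to 38.6), but Ccrl2 overlapped C5ar1 (31.6 to 32.9), the next in order. Per length, Ccrl2 reached 8.21%, 6.93% and 7.94% of the level of Ccr1 in the control libraries and 90.8%, 76.0% and 74.9% in the NETs-treated ones. Summed over the 44 receptors, Ccrl2 made up 1.49% to 1.84% of the control level and 22.9% to 26.4% of the NETs-treated level. The sum was itself lower in NETs-treated libraries (141 to 146 CPM per kilobase) than in control libraries (183 to 190). These shares therefore reflect the lower sum as well as the higher level of Ccrl2.

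**Figure D2:**
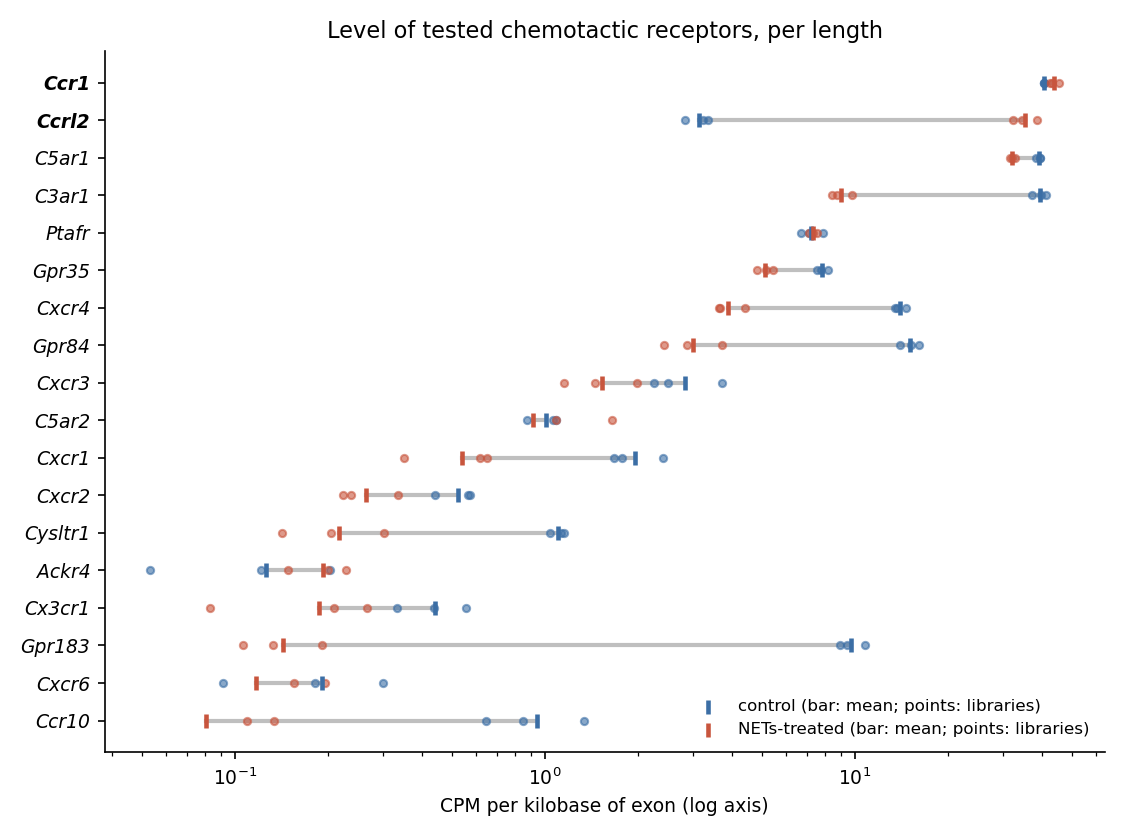
Level of tested chemotactic receptors in CPM per kilobase of exon (log axis), with points for libraries, vertical bars for the means of control and NETs-treated cells and grey lines between the means; libraries at 0 are not drawn. Ccrl2 moves from 3.14 to 35.3 CPM per kilobase and is next to Ccr1 at the top in NETs-treated cells. By NETs-treated mean the 12 receptors that fell lie lower, though libraries of C5ar1 overlap those of Ccrl2.

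Most other tested chemotactic receptors fell. Of the 37 receptors outside the 7, 17 were tested, 12 fell and 0 rose (edgeR, Benjamini-Hochberg adjusted p under 0.05). The shares over all tested genes were 27.2% lower and 25.5% higher. These 17 receptors had a median of -0.98 (log2) against -0.02 for all genes tested. None was higher at an unadjusted p under 0.05 either, and DESeq2 and limma-voom gave the same counts of 12 and 0. Leaving out control replicate 1 or 2 or NETs-treated replicate 1 or 2 gave 9 falls, and leaving out any control or NETs-treated replicate 1 gave 1 rise. Gpr183, an oxysterol receptor that positions cells in tissue, fell furthest, from 28.0 ± 2.78 to 0.413 ± 0.124 CPM (SD, n = 3 each). Cysltr1, a receptor of cysteinyl leukotrienes, fell from 5.68 ± 0.318 to 1.11 ± 0.418 CPM (edgeR log2 fold change -2.35 ± 0.30, SE, adjusted p = 0.000257). C3ar1, the receptor of the complement fragment C3a, had a log2 fold change of -2.13 ± 0.08, and C5ar1, that of C5a, had -0.28 ± 0.06. Ptafr, the receptor of platelet-activating factor and also named after its values were seen, did not pass, at 26.3 ± 2.23 and 26.6 ± 0.779 CPM.

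Among the 9 tested chemokine receptors 6 fell, beside 27.2% of all tested genes. Without control replicate 1 or 2 or NETs-treated replicate 1 or 2, 3 fell. Ccr10, a receptor of mucosal and skin chemokines, went from 1.12, 1.46 and 2.31 CPM in control to 0.188, 0 and 0.230 CPM in NETs-treated libraries. It passed the filter on low counts through its control libraries. Cxcr1, a receptor of neutrophil-attracting chemokines, fell from 2.90 ± 0.585 to 0.804 ± 0.244 CPM. The calls lost when a library was left out were those of Cxcr2, Cxcr3 and Cx3cr1, named for that reason. In the other direction, 2 chemokine receptors too low for the filter were at 0 in all control libraries, and both were chosen after their values were seen. Ackr3, an atypical receptor that scavenges the chemokine Cxcl12, had 8, 25 and 43 reads in the NETs-treated libraries, at least 27.4-fold higher against a floor of 3 reads over the control group. Ccr9, the receptor of gut homing, had 10, 7 and 10 reads, at least 9.72-fold higher. These bounds too take the observed reads as they stand, without their own counting error. Both receptors were called higher when no filter on low counts was applied.

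Genes next to the receptors on the chromosome were mostly at or near 0. The nearest protein-coding genes of Ccrl2 are Ltf, the gene of the neutrophil granule protein lactoferrin, at a distance of 11719 bases and at 0 in all 6 libraries, and Lrrfip2, 60073 bases away. Lrrfip2 had 112 ± 3.82 CPM in control and 144 ± 30.4 CPM in NETs-treated cells and was not called (edgeR adjusted p = 0.0561). Ccr1 is flanked by Xcr1, with 13 and 14 reads in control and NETs-treated cells, and Ccr1l1, with 0 and 3. Between Ccr1 and Ccr2, 133258 bases apart, lies Ccr3 with 4 and 0 reads. Of Xcr1, Ccr1, Ccr1l1, Ccr3 and Ccr2, Ccr1 was thus the abundant one in both groups. On chromosome 17 Fpr3, which overlaps Fpr2 on the same strand, was at 0; how reads in the overlap were counted is unknown, which bears on both genes. Beside Ltb4r1, the low-affinity leukotriene B4 receptor Ltb4r2 had 21 and 13 reads, and Adcy4 had 0.

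Over the 6 libraries, the genes most like Ccrl2 were Procr, Phlda1 and Rab11fip1, by the distance between log2 CPM values centred on each gene's mean (0.27, 0.30 and 0.41; 8651 genes of at least 10 CPM compared, leaving out predicted genes, clones and pseudogenes). Procr, which encodes the endothelial protein C receptor, went from 66.3 ± 5.59 to 704 ± 146 CPM (SD, n = 3 each). Phlda1 went from 32.6 ± 0.794 to 355 ± 15.6 CPM. Among the genes closest to Ccr1 were Gnaq and Anxa7, with distances of 0.04 and 0.06. These are genes whose libraries stayed nearly level, such as Gnaq, which encodes a G protein alpha subunit, at 107 ± 1.26 and 114 ± 2.38 CPM.

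Ligands of Ccr1 and Ccr2 went both ways. Among 7 tested genes there were 2 calls upward and 3 downward, and the median log2 fold change was -0.12. Of all genes tested, 25.5% were called higher and 27.2% lower. Ccl9, a ligand of Ccr1, rose from 143 ± 2.64 to 188 ± 25.3 CPM (SD, n = 3 each). Ccl3, a further ligand of Ccr1 and the most abundant of the list, had 3234, 3447 and 3504 CPM in control and 5277, 5227 and 3463 CPM in NETs-treated libraries. The groups overlapped through NETs-treated replicate 3, and the call (edgeR adjusted p = 0.0258) was lost without any of the control libraries, without NETs-treated replicate 2 and with no filter, which left 1 rise. Ccl2, the main ligand of Ccr2, fell from a mean of 297 to 162 CPM, and Ccl6 fell from 35.0 ± 1.49 to 20.2 ± 0.438 CPM. Of the ligands of formyl peptide receptors, 2 were tested and 0 passed in either direction, by edgeR, by DESeq2, by limma-voom and at an unadjusted p under 0.05. Anxa1, whose protein annexin A1 binds Fpr2, stood at 163 ± 5.78 and 160 ± 22.9 CPM, and Saa3, a serum amyloid gene, at 2.63 ± 0.667 and 2.22 ± 0.977 CPM.

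Of the genes of leukotriene B4 synthesis and breakdown, all 6 tested passed, 3 higher and 3 lower, around a median log2 fold change of -0.03. The shares over all tested genes were 25.5% higher and 27.2% lower. Alox5ap, the protein that presents arachidonic acid to 5-lipoxygenase, rose from 232 ± 6.95 to 285 ± 19.2 CPM, and Cotl1, which binds 5-lipoxygenase and actin, from 197 ± 12.7 to 387 ± 62.5 CPM. Cyp4f18, which inactivates leukotriene B4, fell from 3.89 ± 0.490 to 1.51 ± 0.555 CPM, and Ptgr1, a reductase that also degrades it, from 27.25 ± 1.83 to 20.7 ± 1.95 CPM. Without control replicate 3, 1 gene fell. The gene of 5-lipoxygenase itself, Alox5, had 5, 11 and 0 reads in the control libraries and 0 in the NETs-treated ones, so the groups overlapped at 0; it was named because it is the list's untested gene.

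Downstream of the receptors, 8 of 19 tested genes of Gi signalling and movement rose and 6 fell, with 5 rising under scaling by library size only or without control replicate 2. Over all genes tested 25.5% rose and 27.2% fell, so the falls here lay near the general share. Gnai3, a Gi alpha subunit, rose from 171 ± 6.60 to 304 ± 32.9 CPM (edgeR adjusted p = 8.91e-05). Gng5, a G protein gamma subunit, rose by 0.59 ± 0.11 (SE) on the log2 scale. Plcb2, a phospholipase that Gi subunits activate, fell from 216 ± 8.07 to 66.6 ± 11.4 CPM, and the gamma subunit gene Gng2 from 112 ± 2.83 to 39.75 ± 4.17 CPM. Members of one family thus lay on both sides.

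Genes that switch such receptors off had 10 tested members, of which 1 rose and 5 fell, or 3 without control replicate 3 or NETs-treated replicate 2. Among all tested genes, 25.5% rose and 27.2% fell. Arrb1, the gene of an arrestin that uncouples and internalises receptors, fell from 125 ± 4.38 to 32.8 ± 1.60 CPM (log2 fold change -1.93 ± 0.07, SE). Rgs2, a regulator that shortens G protein signals, fell from 137 ± 7.56 to 31.1 ± 2.14 CPM. Its relative Rgs1 rose from 193 ± 17.2 to 364 ± 43.6 CPM.

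**Figure D3:**
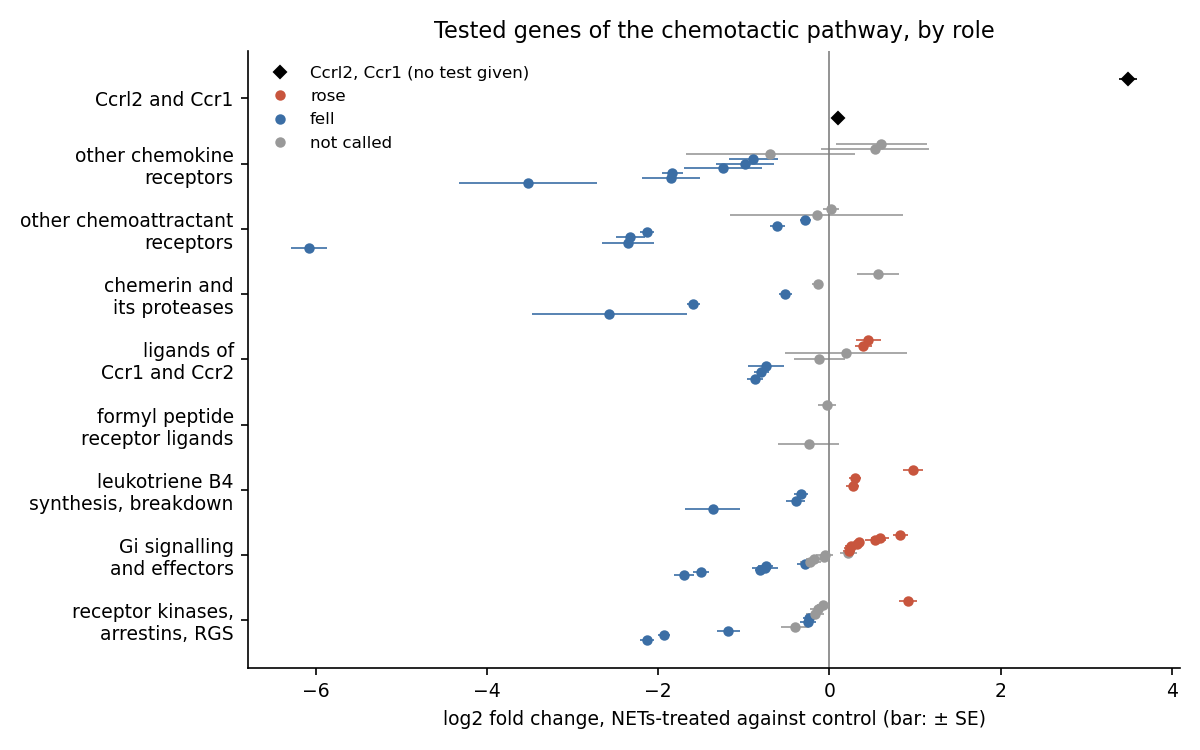
Log2 fold change of NETs-treated against control cells (bars: ± SE) for the tested genes of the chemotactic pathway by role; red rose, blue fell and grey did not pass at an adjusted p under 0.05 (edgeR), and black diamonds are Ccrl2 and Ccr1, given without a test. Ccrl2 stands at 3.49, to the right of all the others drawn, and the 12 falling receptors lie to the left of 0.

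Cell type markers were read beside these values. All 9 macrophage markers were expressed, led by Lyz2 (2978 ± 81.2 and 3526 ± 144 CPM), Cd14 (691 ± 6.08 and 5442 ± 85.7 CPM) and Cd68 (812 ± 21.6 and 620 ± 101 CPM). Of these 9 markers 2 rose and 7 fell, where 25.5% of all tested genes rose and 27.2% fell. Of 7 microglia markers, the defining factor Sall1 was at 0, and Tmem119 stood at 1.44 ± 0.562 CPM in control and 5.04 ± 0.459 CPM in NETs-treated cells. Because NETs come from neutrophils, 14 neutrophil markers were summed: 12.6 to 15.2 CPM in the control and 10.9 to 17.0 CPM in the NETs-treated libraries, with Ly6g, Mpo, Ctsg, Ngp, Ltf, S100a9 and Retnlg at 0 in all 6. S100a8 rose from 2.68 ± 0.591 to 11.7 ± 2.67 CPM, and 3 of the 5 tested neutrophil markers fell, among them Csf3r, the receptor of a neutrophil growth factor, from 6.21 to 0.127 CPM. The chemerin list shares Prtn3, Elane and Ctsg with these markers, and the chemokine receptors share Cxcr2. Fpr1, Fpr2, Ccr1 and Ltb4r1 are known from neutrophils too, and a part of neutrophil RNA in their values was not tested. Sums of T, B and natural killer cell markers reached at most 0.470 CPM, of fibroblast markers 0.0930 CPM, and of dendritic and mast cell markers 5.61 CPM, the last mostly Zbtb46. In bulk samples fewer cells of a kind and less RNA per cell cannot be told apart.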

How the data were processed

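RNA-seq counts of 6 samples, 3 NETs-treated and 3 control, grouped by the treatment label, were analysed. Per the labels' protocols, libraries were made from total RNA with a kit that marks strand. HISAT2, DESeq2 and the builds mm10 and rn6 are named in the submitters' processing notes without versions or roles; which counter, strand setting and annotation were used was not given in the sources used here. Overlapping genes may therefore not be parted. The authors deposited raw read counts per gene, per the file headers, beside normalised counts, a signal that equals the count over 1 size factor per sample (checked on the values). That deposited table also holds the authors' log2 fold changes and p-values, used as an alternative. Per-sample columns without a sample numbered 0.

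The test was edgeR 4.0.16 (R 4.3.3), quasi-likelihood, two-sided, on all 6 samples without covariates, with TMM scaling and its filter (minimum count 10, minimum total 15), which kept 15272 of 55401 genes and 99.9% of counts. P-values were adjusted by Benjamini-Hochberg over all genes tested, with a threshold of 0.05. The fit was tested on simulated data. Total counts ran from 39994613 to 44274445 per library, and libraries of a group differed by more than sampling noise (chi-square per gene from 9.89 to 78.3). CPM is scaled by TMM. Exon lengths and coordinates are from GENCODE M21 (GRCm38). In it 55141 identifiers were found with the version suffix ignored, and 54349 with it kept. Alternatives were 3 other scalings, DESeq2 1.42.0 (Wald), limma 3.58.1 (voom), 2 filters, a block for the replicate number, each sample left out, the authors' table, and the longest transcript as length.

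The receptors and gene lists were chosen with earlier results of these data known. Named genes were the 7 receptors, from each list up to 2 called rises and 2 called falls of largest size with at least 1 CPM in a group (or the 2 most abundant), neighbouring protein-coding genes, the 3 genes most like each tested receptor, and from marker lists the 3 most abundant genes and those at 0. Genes outside this rule are marked. Some marker genes are given only within sums. A few genes that the rule names are not reported here.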

Additional observations from a re-analysis of the deposited data

How the results depend on the processing

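The fold changes of Ccrl2 and Ccr1 kept their direction, and the total calls stayed within 1.5 times of 3896 higher and 4155 lower, in every alternative. Counts of members in the small lists moved more. Other chemokine receptors had 2 members higher with no filter on low counts (Ackr3 and Ccr9) and 2 by the authors' deposited table, against 0; when a sample was left out, 0 to 1 were higher and 3 to 6 lower. Leaving out a sample gave 0 to 1 higher in the chemerin list, 1 to 2 higher among the ligands of Ccr1 and Ccr2 (1 with no filter), 1 to 3 lower in leukotriene B4 synthesis and breakdown, 5 to 9 higher in Gi signalling (5 with library size only) and 3 to 6 lower among receptor kinases, arrestins and RGS proteins. Counting both receptor lists together was chosen after seeing the data.

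Replicate numbers gave at most a weak sign of pairing. Deviations from the group means correlated by 0.12, 0.03 and 0.07 between samples of the same number. Each sample correlated best with its own number, so with 3 samples per group pairing could not be settled. With the replicate number as a block, 3896 genes were higher and 4209 lower, Ccrl2 had a log2 fold change of 3.49 and Ccr1 of 0.10, and Cxcr2 and Cx3cr1 were no longer called. Depth limits Cmklr1, Ccr2, Fpr1, Fpr2 and Ltb4r1, which were too low to test, and 3 libraries per group limit all values.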
